A study of Homo sapiens with 6 samples.

Results

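The 8 mucin genes described here are the membrane mucins MUC1, MUC3A, MUC12, MUC13, MUC16 and MUC20 and the secreted mucins MUC5AC and MUC5B. They were taken by symbol, through a table that pairs Ensembl identifiers with symbols, and all 8 were found among the 63186 genes of the deposited table of read counts. The counts come from 6 RNA-seq libraries of RBE cells, an established human cell line from a tumour of the intrahepatic bile ducts (intrahepatic cholangiocarcinoma). Of these, 3 are from cells given a control siRNA (si-Ctrl) and 3 from cells given siRNA against CHAF1A (si-CHAF1A), the large subunit of chromatin assembly factor 1, which deposits histones on newly made DNA. In both groups cells at about 60% confluency were transfected with Lipofectamine 3000 in DMEM with serum, the medium was changed after 24 h, and RNA was taken at 48 h. All 6 libraries are of a single line, and the labels do not say how many siRNAs were used.

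Mucins are long proteins with repeated stretches rich in serine and threonine, to which sugar chains are attached through oxygen (O-glycans). Membrane mucins stay anchored on the apical surface of epithelial cells, form the glycocalyx and can signal through their cytoplasmic tails. Secreted mucins link into the polymers that make mucus a gel. In the biliary tree they coat the duct lining, and several of them, MUC1 and MUC5AC in particular, are widely used in the pathology of bile duct tumours.

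Of the 8 genes, 5 had enough reads to test and 3 (MUC16, MUC5B and MUC20) did not. MUC5AC and MUC1 rose after CHAF1A knockdown, and MUC13, the most abundant member in both groups, was nearly level. With the quasi-likelihood test of edgeR and an adjusted p of 0.05, 2 of the 5 tested members were higher and 0 were lower. Over all 15911 tested genes that rule called 18.5% higher and 19.3% lower, 37.8% in either direction. Among the 4947 tested genes within the members' range of mean level (1.5 to 14.8 CPM), 18.0% were higher and 11.3% lower, 29.3% in either direction, so with 5 genes tested the count alone does not set the mucins apart.

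The libraries held between 15643381 and 20918997 counts, and si-Ctrl 2 stood away from the other controls on the second principal component (-29.6 against 14.9 and 13.9). CHAF1A itself lay between 51.0 and 59.8 CPM in si-Ctrl and between 11.1 and 12.9 CPM in si-CHAF1A. CPM, the usual unit of counts relative to library size, was computed here with TMM library sizes. The design text calls them biological replicates without saying what was done separately, and the p-values cover the spread among these 6 libraries, which may be partly technical.

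MUC1 (ENSG00000185499, GRCh38 chromosome 1, 155185824 to 155192916, minus strand) encodes the archetypal membrane mucin, a heterodimer whose short cytoplasmic tail binds signalling proteins such as beta-catenin and SRC. Its promoter is shown because it is the best measured member that rose. The 250 bases before a RefSeq start on the minus strand, chr1:155192910-155193159 (GRCh38.p14), are printed 5′ to 3′ with motif matches in capitals.

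MUC1 promoter: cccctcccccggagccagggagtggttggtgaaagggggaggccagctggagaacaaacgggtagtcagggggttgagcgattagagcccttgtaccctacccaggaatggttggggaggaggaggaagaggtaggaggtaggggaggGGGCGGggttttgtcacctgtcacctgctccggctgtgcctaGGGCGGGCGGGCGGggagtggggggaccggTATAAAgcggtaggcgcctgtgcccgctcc
MUC13 promoter: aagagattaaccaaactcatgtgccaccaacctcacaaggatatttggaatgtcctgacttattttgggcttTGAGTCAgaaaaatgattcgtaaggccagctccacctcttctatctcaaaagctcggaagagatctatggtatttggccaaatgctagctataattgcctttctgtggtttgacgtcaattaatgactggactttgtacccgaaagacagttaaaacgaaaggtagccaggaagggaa
MUC19 promoter: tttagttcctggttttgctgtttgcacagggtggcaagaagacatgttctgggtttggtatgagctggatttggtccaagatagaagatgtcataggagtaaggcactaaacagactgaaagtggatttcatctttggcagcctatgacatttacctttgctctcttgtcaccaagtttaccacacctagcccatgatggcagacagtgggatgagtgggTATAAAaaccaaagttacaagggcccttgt

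The MUC13 window, chr3:124934752-124935001 on the minus strand, is set beside it as the abundant member that did not pass the test. That window precedes a RefSeq start but lies inside the gene model used here (124905442 to 124953819), not before it. The MUC19 window, chr12:40393144-40393393 on the plus strand, is shown as another mucin that rose. RefSeq's promoter set as used here held 5 of the 8 members, without MUC5AC, MUC5B or MUC20. The windows were searched on both strands for the GC box GGGCGG, the TATA box TATAAA, the AP-1 site TGANTCA, the STAT site TTCNNNGAA, the E-box CACGTG and the NF-kB site by its name. The MUC1 window held GGGCGG at 4 places, of which 3 overlap each other, and TATAAA from base 30 to 25 before the start. MUC19 held TATAAA at the same distance, and MUC13 held the AP-1 letters from base 178 to 172. The distance for MUC1 holds for the start shown, and from another listed MUC1 start TATAAA lay from base 24 to 19. Members that did not pass the test held such letters too, MUC3A a GC box from base 59 to 54 and MUC12 a TATA box on the other strand from base 31 to 26. MUC16, whose listed starts lie outside the gene model used here, held AP-1 and NF-kB letters before one start and a GC box before the other. Over 35116 promoter windows of the same length, 42.6% held the GC box, 10.7% the TATA box, 6.57% the AP-1 letters, 6.57% the STAT letters, 6.34% the E-box and 9.96% the NF-kB site. The MUC1 window was 66.0% G and C, against 41.6% for MUC13 and 44.4% for MUC19. A match describes the letters in these windows and no binding was measured.

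MUC1 stood at 4.29, 5.05 and 3.90 CPM in si-Ctrl 1, 2 and 3 and at 9.57, 9.48 and 8.64 CPM in si-CHAF1A 1, 2 and 3. Every knockdown library lay above every control library, a separation that 48.2% of tested genes show in one direction or the other. The counts behind these levels were 67, 100 and 68 in control and 161, 165 and 154 in knockdown cells. MUC1 rose 2.08-fold, from 4.41 ± 0.587 to 9.23 ± 0.513 CPM (mean ± SD of 3 libraries each; fitted log2 change 1.06 with SE 0.15, 95% interval 0.74 to 1.37, edgeR adjusted p = 4.25e-05). Rises of at least 2-fold that passed the test made up 4.19% of tested genes.

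MUC13 (ENSG00000173702, chromosome 3, 124905442 to 124953819, minus strand) encodes a membrane mucin of the gut and bile duct surface that carries EGF-like domains. It stood at 12.9, 14.05 and 15.2 CPM in si-Ctrl and at 14.7, 16.3 and 15.8 CPM in si-CHAF1A. The groups overlapped, since si-CHAF1A 1 lay under si-Ctrl 3. The means were 14.03 ± 1.17 and 15.59 ± 0.770 CPM (n = 3 each), with a log2 fold change of 0.15 (SE 0.11, edgeR adjusted p = 0.289). The 95% interval of that change ran from -0.07 to 0.37, so a rise as large as that of MUC1 lies outside it.

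MUC3A (ENSG00000169894, 100949555 to 100968346) and MUC12 (ENSG00000205277, 100969623 to 101018949) lie next to each other on the plus strand of chromosome 7 and encode membrane mucins of the intestinal type. MUC3A stood at 1.02, 1.72 and 1.89 CPM in si-Ctrl and at 2.02, 1.32 and 1.01 CPM in si-CHAF1A, so that the lowest and the highest of the 6 values were both knockdown libraries. MUC12 stood at 1.41, 2.02 and 1.15 CPM in si-Ctrl and at 1.19, 2.47 and 1.63 CPM in si-CHAF1A, again with overlap. Neither passed the test, MUC3A with a log2 fold change of -0.11 (95% interval -0.81 to 0.60, edgeR adjusted p = 0.831) and MUC12 with 0.20 (-0.49 to 0.89, edgeR adjusted p = 0.672). At 16 to 43 counts a library these intervals include changes of more than 1.5-fold, and the sign of each value turned when single libraries were left out. MUC12 shares 194 bp of exon with MUC12-AS1 on the opposite strand, which had 6 to 19 counts a library, and although the design text plans strand-specific libraries, the strand setting of the counting is not given in the sources used here. MUC3A is known to have a near-identical copy, MUC3B, so the assignment of its reads is uncertain.

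MUC16 (ENSG00000181143, chromosome 19, 8848844 to 8981342, minus strand), the very large membrane mucin whose shed part is the tumour marker CA125, was too low for the test. It had 0, 2 and 0 counts in si-Ctrl and 9, 13 and 8 counts in si-CHAF1A. All 3 knockdown libraries lay above all 3 controls. Summed over each group and scaled to library size, 30 counts against 2 give a ratio of 15.2, with an exact (Clopper-Pearson) 95% interval of 3.86 to 132 that covers counting error only. The control value rests on the 2 counts of si-Ctrl 2. When no filter on low counts was used, MUC16 was tested and passed (log2 fold change 3.70, edgeR adjusted p = 0.000487 over 35659 genes). Its binding partner mesothelin, MSLN, was near 0 in both groups (0.0932 ± 0.0263 and 0.174 ± 0.116 CPM).

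MUC20 (ENSG00000176945, chromosome 3, 195720882 to 195741123, plus strand), a membrane mucin described as a partner of the receptor MET, had 0 counts in all 6 libraries. At this depth that allows up to 0.0568 CPM over the 3 control and 0.0576 CPM over the 3 knockdown libraries (3 counts per group). Its exons share 1820 bp with the non-coding MUC20-OT1 on the same strand, which had 0 to 3 counts a library. The copy MUC20P1, a pseudogene, had 3 to 8 counts a library. How reads shared between these genes were counted is not given, and its part in the 0 was not tested. MET itself was at 632 ± 34.8 and 530 ± 18.3 CPM (log2 fold change -0.25, edgeR adjusted p = 0.0044).

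MUC5AC (ENSG00000215182, chromosome 11, 1157953 to 1201138, plus strand) encodes a gel-forming mucin of stomach and airway that bile duct tumours often make. It stood at 1.22, 2.12 and 0.229 CPM in si-Ctrl and at 7.85, 8.56 and 11.6 CPM in si-CHAF1A. The groups were far apart, but the controls differed widely among themselves, with 19, 42 and 4 counts, while the knockdown libraries had 132, 149 and 206. MUC5AC rose 7.63-fold, from 1.19 ± 0.947 to 9.32 ± 1.97 CPM (3 libraries each; fitted log2 change 2.93 with SE 0.48, 95% interval 1.79 to 4.08, edgeR adjusted p = 0.00281). The size depended on single control libraries. Without si-Ctrl 2 the log2 fold change was 3.72 (edgeR adjusted p = 6.2e-06), without si-Ctrl 3 it was 2.44 (edgeR adjusted p = 2.19e-06), and over all alternatives tried the adjusted p ran from 5.05e-17 to 0.046.

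MUC5B (ENSG00000117983, chromosome 11, 1223066 to 1262172, plus strand), the gel-forming mucin whose gene follows MUC5AC on the chromosome, was too low for the test. It had 6, 7 and 5 counts in si-Ctrl and 3, 4 and 4 counts in si-CHAF1A. Each knockdown library lay under each control, but 11 counts against 18 give a ratio of 0.620 with an exact 95% interval of 0.265 to 1.39. Without a filter its log2 fold change was -0.68 (edgeR adjusted p = 0.56), so a difference in MUC5B was not detectable at this depth. The other gel-forming genes of the same stretch were also low. MUC2, the main intestinal mucin, had 8, 12 and 5 counts in control and 5, 25 and 19 in knockdown cells, and MUC6, a mucin of gastric and duct glands, had 0 counts in control and 3, 0 and 2 in knockdown cells.

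**Figure D1:**
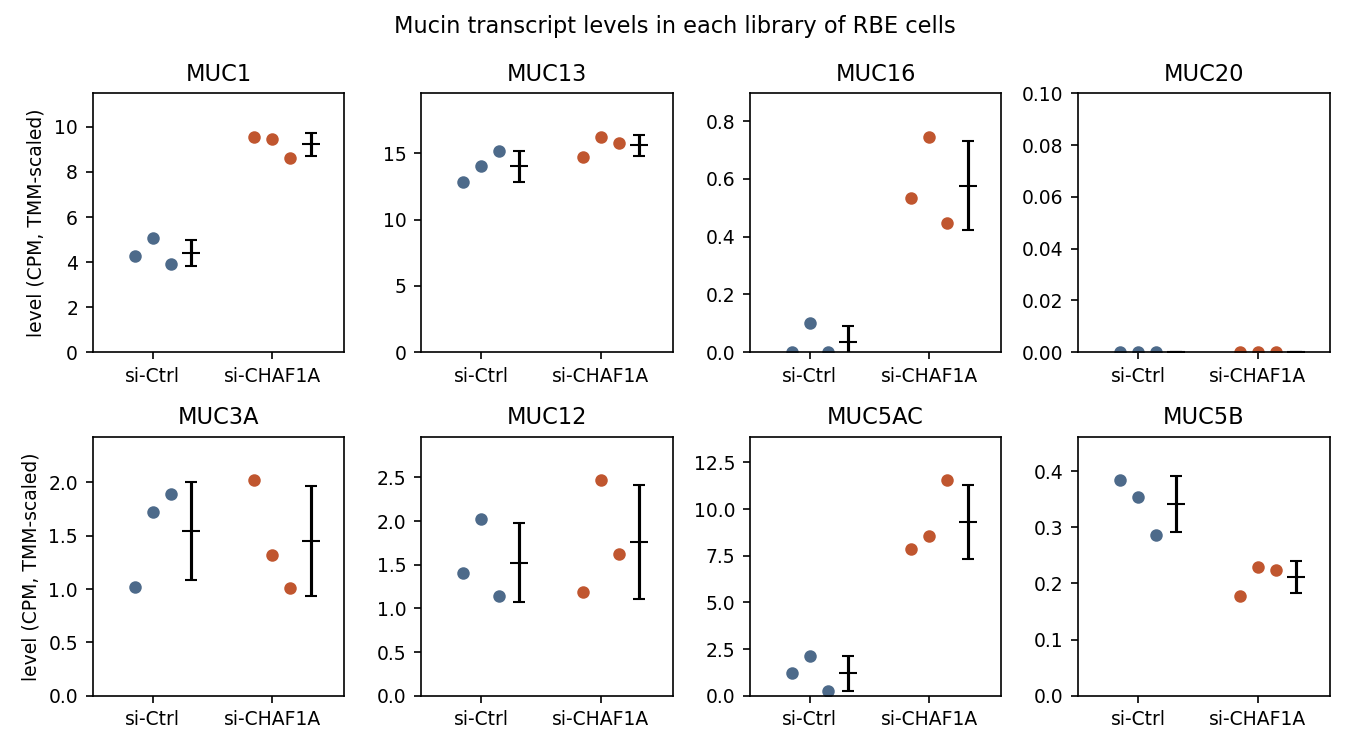
Level of each of the 8 mucins in CPM (linear axes from 0, a scale per gene) in the 3 si-Ctrl and 3 si-CHAF1A libraries, points in order of replicate number; the bar beside the points is the mean and SD (n = 3), clipped at 0 for MUC16. MUC1, MUC5AC and MUC16 have every knockdown point above every control point, and MUC5B has every knockdown point below every control point. Of these, MUC16 and MUC5B (3 to 7 counts a library) were too low to test. Among tested genes, 48.2% show such a separation in one direction or the other. MUC13, MUC3A and MUC12 overlap, and MUC20 is at 0.

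The tested members were also compared in pairs, and no pair passed a threshold of 0.05, which this design cannot reach. The log2 ratio of MUC1 to MUC13 within a library went from -1.65 in si-Ctrl to -0.75 in si-CHAF1A, a difference of 0.90 (SE 0.16). That of MUC5AC to MUC1 went from -2.16 to about 0.00, a difference of 2.16 (SE 0.74). In 7 of the 10 pairs, those of MUC5AC or MUC1 with another tested member, the 2 groups did not overlap (two-sided exact permutation p = 0.1, the smallest that 3 against 3 allows, adjusted p = 0.143 over the 10 pairs). The size of the MUC5AC pairs depended on si-Ctrl 3, the control with the fewest MUC5AC counts. Without it the difference of MUC5AC to MUC1 was 1.46, and over all single libraries left out it ran from 1.46 to 2.63, against 0.76 to 1.00 for MUC1 to MUC13. The pairs among MUC12, MUC13 and MUC3A were at 0.02 to 0.27, with exact permutation p from 0.6 to 1.0. With single libraries left out, MUC12 to MUC3A ran from -0.06 to 0.75 and MUC12 to MUC13 from -0.21 to 0.23.

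**Figure D2:**
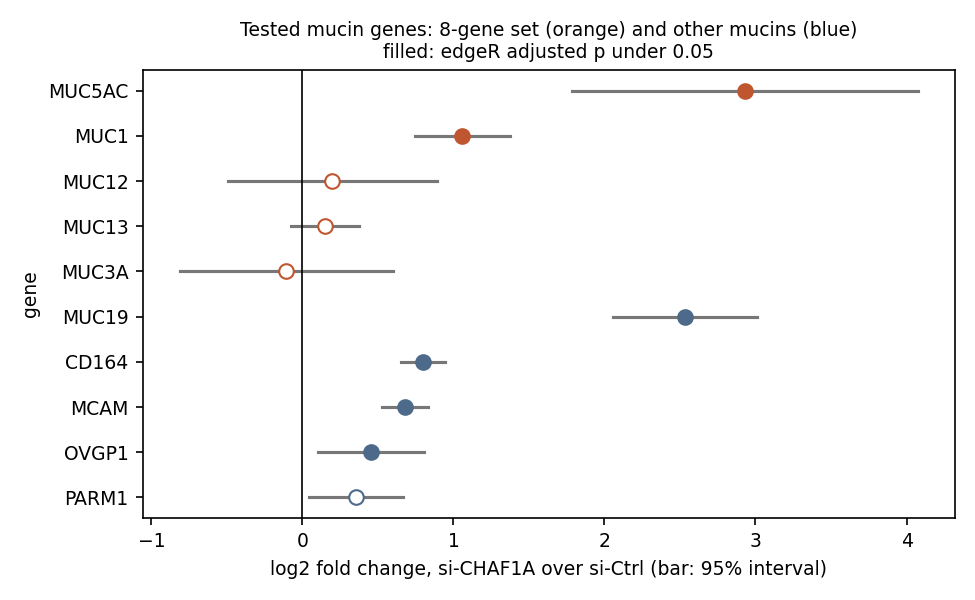
Fitted log2 fold change of si-CHAF1A over si-Ctrl for the 5 tested members (orange) and the 5 other tested mucin genes (blue), with 95% intervals; filled points passed edgeR at an adjusted p of 0.05. MUC5AC and MUC19 lie furthest to the right at 2.93 and 2.54, MUC1 at 1.06 has a narrower interval, and the intervals of MUC13, MUC12 and MUC3A include 0.

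Levels can be set against each other only per length, since MUC16 has 43830 bp of annotated exon and MUC13 3499 bp. As CPM per kilobase of exon, MUC13 led in control cells at 4.01 ± 0.334, followed by MUC1 at 0.936 ± 0.125 (n = 3 each). MUC3A (0.136 ± 0.0404), MUC12 (0.0890 ± 0.0262) and MUC5AC (0.0682 ± 0.0543) came next, with overlapping libraries between neighbours in that order. MUC5AC also overlapped MUC5B (0.0184 ± 0.00267), and MUC16 and MUC20 were last. In knockdown cells the order was MUC13 (4.45 ± 0.220), MUC1 (1.96 ± 0.109) and then MUC5AC (0.534 ± 0.113), which now lay above MUC3A (0.128 ± 0.0456) in every library. MUC3A and MUC12 overlapped again, as did MUC16 and MUC5B.

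The make-up of these transcripts per length shifted accordingly. MUC13 made up 75.8, 73.0 and 80.0% of the summed CPM per kilobase of the 8 genes in si-Ctrl and 60.5, 62.5 and 62.5% in si-CHAF1A. The share of MUC1 was 17.8 ± 2.28% in control and 27.2 ± 1.87% in knockdown cells. That of MUC5AC was 1.30 ± 0.993% and 7.42 ± 1.54%, and its highest control (2.21%) lay under its lowest knockdown library (6.46%). The sum itself went from 5.26 ± 0.360 to 7.20 ± 0.237 CPM per kilobase. These shares describe the measured libraries and were not tested.

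**Figure D3:**
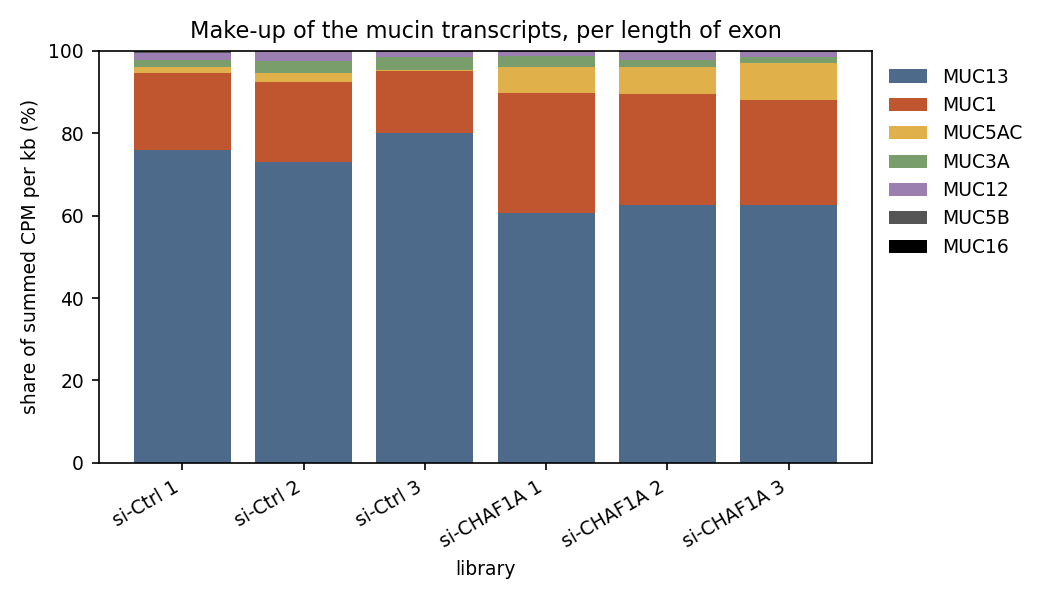
Share of each mucin in the summed CPM per kilobase of exon of the 8 genes (linear axis, 0 to 100%), in each of the 6 libraries. MUC13 fills 73.0 to 80.0% of the bar in control and 60.5 to 62.5% in knockdown libraries, while the bands of MUC1 and MUC5AC are wider in all 3 knockdown libraries.

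Among 16 other genes named as mucins or mucin-like that the table holds, 5 could be tested, of which 4 were higher and 0 lower. Over all tested genes 18.5% were higher and 19.3% lower. The median log2 fold change of the 5 was 0.68 against 0.00 over all tested genes. With single libraries left out, 3 to 5 genes of this list were higher, and the share was not tested. MUC19, a gel-forming mucin of salivary glands, stood at 0.959, 1.57 and 1.84 CPM in si-Ctrl and at 6.84, 9.99 and 8.81 CPM in si-CHAF1A. It rose 5.80-fold (fitted log2 change 2.54 with SE 0.22; edgeR adjusted p = 4.02e-07). CD164, a small sialomucin of endosomes and the cell surface, rose from 135 ± 10.95 to 234 ± 4.82 CPM (log2 fold change 0.80, edgeR adjusted p = 3.34e-07). MCAM, an adhesion molecule also called MUC18, rose from 123 ± 8.80 to 197 ± 9.87 CPM (log2 fold change 0.68, edgeR adjusted p = 2.25e-06), and it shares 509 bp of exon with CBL on the opposite strand. OVGP1, the oviduct glycoprotein, passed narrowly (log2 fold change 0.45, edgeR adjusted p = 0.0393), and the call was lost in 7 of its 11 alternatives, among them without si-Ctrl 1 or 3 and without si-CHAF1A 1 or 3 (adjusted p up to 0.224). PARM1, a mucin-like membrane protein, was at 0.36 and did not pass (edgeR adjusted p = 0.067), though it did without si-CHAF1A 1 (adjusted p = 0.0287). MUC4, MUC7 and MUC17 had 0 or 1 count in each library.

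The enzymes that add the first sugar of an O-glycan, the GalNAc transferases, changed in both directions. Of 12 tested, 4 were higher and 3 lower, with a median log2 fold change of -0.03. Beside these counts, 18.5% of all tested genes were higher and 19.3% lower, and the shares in this list were not tested. GALNT1 fell by 1.30 on the log2 scale, from 136 ± 15.3 to 55.4 ± 1.29 CPM (edgeR adjusted p = 9.68e-09), and GALNT18 fell by 0.44. GALNT2, the most abundant of those named, rose by 0.37 from 463 ± 39.1 CPM, and GALNT9 rose by 1.05 from 1.66 ± 0.350 CPM. Without si-Ctrl 2 there were 5 lower members, and with no filter on low counts there were 5 lower and 3 higher. GALNT6, among the higher, had 6, 5 and 3 counts in si-Ctrl and 13, 11 and 15 in si-CHAF1A. It reached the count filter through its knockdown libraries, and with a minimum count of 20 the list had 3 higher.

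Of 24 tested enzymes that extend and cap O-glycans or supply their sugars, 7 were higher and 3 lower, with a median of -0.02. That is 29.2% and 12.5%, beside 18.5% and 19.3% of all tested genes. B4GALT1, a galactosyltransferase, rose 2.87-fold, from 36.8 ± 1.07 to 105 ± 2.87 CPM (fitted log2 change 1.52 with SE 0.07; edgeR adjusted p = 2.57e-10). CHST2, a sulfotransferase acting on N-acetylglucosamine, rose by 0.97 and B3GNT3, which extends core structures of mucin glycans, rose by 0.62. The fucosyltransferase FUT4 fell by 0.49 on the log2 scale.

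Among 13 tested genes of mucin folding, packaging and mucus, 5 were higher and 1 lower (median 0.15). That is 38.5% and 7.69%, beside 18.5% and 19.3% of all tested genes. CFTR, among the higher, had 2, 3 and 6 counts in si-Ctrl and 16, 15 and 20 in si-CHAF1A. It reached the count filter through its knockdown libraries, and with a minimum count of 20 the list had 4 higher. The granule-release factor UNC13D rose by 0.54, and SYTL2, which binds RAB27A, rose by 0.83. FCGBP, a mucus protein secreted with gel-forming mucins, rose from 8.17 ± 1.33 to 14.1 ± 0.567 CPM (log2 fold change 0.78, edgeR adjusted p = 0.000183). XBP1, the transcription factor of the secretory load, fell by 0.46. AGR2, the disulfide isomerase needed to fold MUC2, was at or under 0.0757 CPM on average in both groups, and TFF1, TFF2 and TFF3, the trefoil peptides of mucus, were at 0 counts.

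Of 23 tested partners and sheddases of membrane mucins, 9 were higher and 6 lower (median 0.13). That is 39.1% and 26.1%, beside 18.5% and 19.3% of all tested genes. LGALS9, among the higher, had 11, 10 and 14 counts in si-Ctrl and 22, 19 and 27 in si-CHAF1A. It reached the count filter only with its knockdown libraries, and with a minimum count of 20 the list had 8 higher. ERBB3, a receptor of the EGF receptor family, with which membrane mucins associate, rose 1.96-fold from 20.2 ± 1.75 to 39.7 ± 3.38 CPM (edgeR adjusted p = 1.31e-06). MMP14, a membrane metalloprotease that can shed MUC1, rose by 0.76, and the sheddase ADAM17, named after its value was seen, rose by 0.33 on the log2 scale. SOS1, the RAS exchange factor recruited with GRB2, fell by 0.83, and RDX, radixin, which ties membrane proteins to actin, fell by 0.59.

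Of 22 tested transcription factors known from work on mucin genes, 8 were higher and 5 lower (median 0.14). That is 36.4% and 22.7%, beside 18.5% and 19.3% of all tested genes. STAT3 rose by 0.53 and the epithelial ETS factor ELF3 rose by 0.62 on the log2 scale, while KLF4 fell by 0.64. Without si-CHAF1A 1 or without si-CHAF1A 2, 5 members were higher, and with a minimum count of 20 there were 7. NF-kB's subunits RELA and NFKB1 and the GC-box factor SP1, whose sites were among those searched above, were at log2 fold changes of 0.10, -0.05 and -0.03 and did not pass (edgeR adjusted p = 0.322, 0.667 and 0.782, named after their values were seen).

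**Figure D4:**
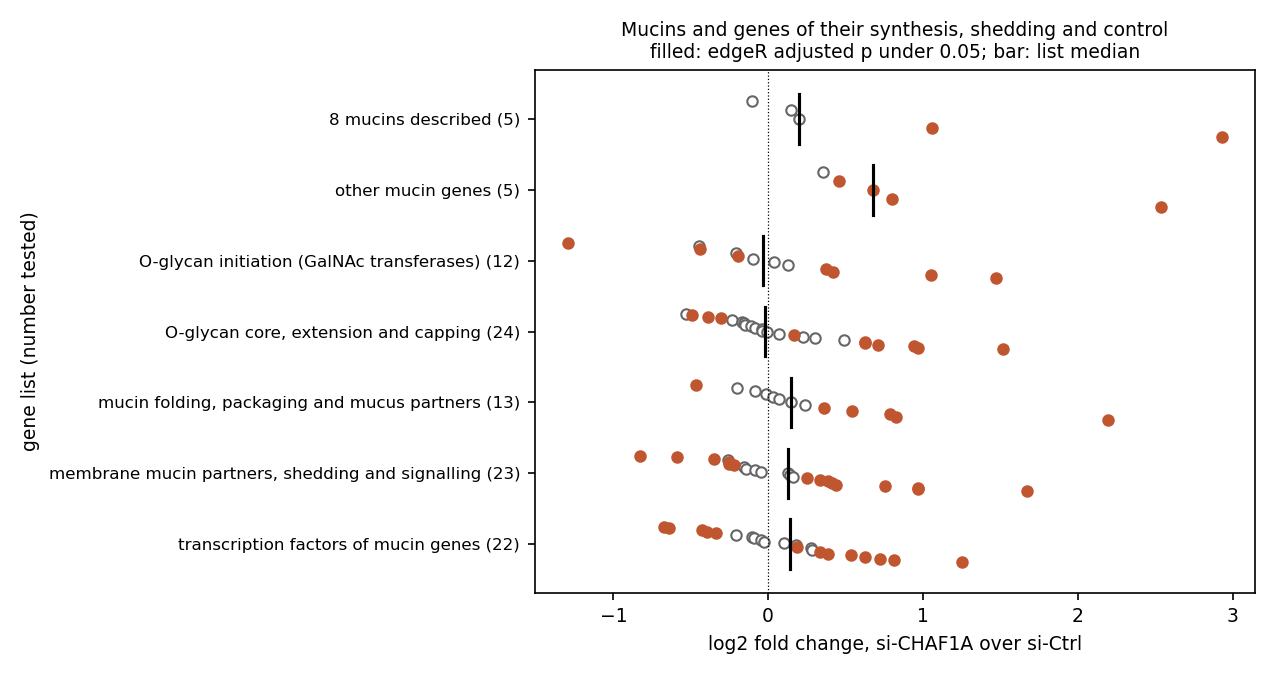
Log2 fold change of every tested gene of the 8 mucins and of 6 further lists, with the number tested in brackets; filled points passed edgeR at an adjusted p of 0.05 and the vertical bar is the list's median. All lists hold points on both sides of 0 except the other mucin genes, and the medians of the glycosyltransferase lists lie near 0 at -0.03 and -0.02.

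Markers of the labelled cell type were present, with all 14 biliary genes tested (7 higher, 4 lower). Over all tested genes 18.5% were higher and 19.3% lower. The biliary genes summed to between 4968 and 5779 CPM in control and between 6080 and 6678 CPM in knockdown libraries. CFTR, among the 7 higher, reached the count filter through its knockdown libraries. The biliary keratin KRT19 rose from 716 ± 78.1 to 1123 ± 67.0 CPM and EPCAM, an epithelial adhesion molecule, rose by 0.32 on the log2 scale. Of 12 hepatocyte genes 5 were tested (2 higher, 1 lower), the sum went from 33.7 to 44.9 CPM in control to 53.6 to 77.3 CPM in knockdown libraries, and albumin, ALB, was at 0.319 ± 0.292 and 0.157 ± 0.149 CPM. Of 9 goblet cell genes 2 were tested and both were higher, FCGBP and the goblet cell factor SPDEF. SPDEF went from 0.532 ± 0.0898 to 1.27 ± 0.356 CPM (edgeR adjusted p = 0.0153, lost at 0.0859 without si-CHAF1A 1 and at 0.0505 without si-CHAF1A 2). Its counts were 8, 9 and 11 in si-Ctrl and 27, 23 and 16 in si-CHAF1A. SPDEF reached the count filter through its knockdown libraries, so the count of 2 higher rests partly on the filter. The goblet sum was 8.32 to 10.8 CPM in control and 16.2 to 16.7 CPM in knockdown libraries, with ATOH1, CLCA1, TFF3 and REG4 at 0 counts. Most of that sum was FCGBP, at 8.17 ± 1.33 and 14.1 ± 0.567 CPM. Fibroblast genes summed to 16.3 to 19.5 CPM and 33.5 to 52.3 CPM, the top value being si-CHAF1A 1. There COL1A2 had 92 counts, against 3 and 1 in si-CHAF1A 2 and 3, and COL1A1 was at 23.4 CPM, against 11.3 and 11.8. Endothelial genes summed to 2.41 to 4.22 CPM and 7.01 to 8.92 CPM. Leukocyte genes summed to 1.09 to 1.32 CPM and 0.617 to 0.747 CPM, where none of 6 was tested. These levels moved with the groups beside MUC1 and MUC5AC, and their part in the mucin results was not tested. In bulk samples more cells with a transcript and more transcript per cell cannot be told apart.

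The genes whose profile over the 6 libraries was nearest to that of the 2 members with the highest mean CPM were found among 11426 genes by the root mean square difference of centred log2 CPM. For MUC13 they were TIMP4 (0.0298), ZNF91 (0.0376) and NFS1 (0.0412). For MUC1 they were L1CAM (0.0623), KLF2 (0.0632) and C3 (0.0655), which were themselves higher in knockdown cells, at log2 fold changes of 1.13, 1.14 and 0.95. With 6 libraries in 2 groups, the likeness to MUC1 is mostly the difference between the groups.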

How the data were processed

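The authors deposited raw whole-number read counts per Ensembl gene in 1 table. Per the submitters' processing notes, the tools were fastp 0.20.1, HISAT2 2.1.0, SAMtools 1.9, featureCounts 2.0.1, StringTie 2.1.4 and build hg38. For their roles, the annotation release, the strand setting and shared reads, the sources used here give nothing. Libraries were sequenced with reads of 150 bp. Columns named NC and si were matched to the si-Ctrl and si-CHAF1A titles with the same number, a reading the labels do not spell out. No column of other samples was present.

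Genes were kept with filterByExpr (minimum count 10, minimum total 15) and tested with edgeR 4.0.16 in R 4.3.3 (TMM, robust quasi-likelihood, no covariate), with Benjamini-Hochberg adjustment over all 15911 tested genes at 0.05. "Higher" and "lower" mean past that test. SE is the log2 fold change divided by the square root of F. Positions and exon lengths (union of exons) came from GENCODE 29 (GRCh38), in which 58173 of the 63186 identifiers were found. Of these 63186, 62665 had a symbol. Promoters came from RefSeq (GRCh38.p14). The self-test ran on simulated counts. Pairs of members were compared with exact permutation tests in scipy 1.17.1. Alternatives were RLE size factors, no filter, a minimum count of 20, DESeq2 1.42.0, a replicate block, and leaving out each library, the last for pairs added after the data were seen.

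The members and lists were chosen with earlier results of these data known. Genes were named by rule: all members, CHAF1A, tested other mucins, in each further list up to 4 genes of lowest adjusted p, and the 3 nearest profiles of 2 members. A gene that this rule names is not reported here. Cell type markers, low mucins, partners and the remaining named genes lie outside it and were chosen after their values were seen.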

Additional observations from a re-analysis of the deposited data

How the results depend on the processing

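MUC1 and MUC5AC passed the test under all 11 alternatives, at log2 fold changes of 0.97 to 1.17 and 2.44 to 3.72, and MUC13 under none (0.09 to 0.21). Without a filter 3 members were higher, MUC16 being the added call. The weakly counted members changed sign as libraries were left out, MUC3A between -0.42 and 0.10 and MUC12 between -0.12 and 0.46, without passing the test. Of the neighbouring genes, TOLLIP likewise ran from -0.0386 to 0.121. Dividing by the longest transcript moved the level per kilobase of MUC13 to 4.87 in control and 5.41 in knockdown cells and that of MUC1 to 2.21 in knockdown cells. The ratio of MUC16 ran from 10.2 to 17.0, and without si-Ctrl 2 there is no control count. With a replicate block 2675 genes were higher and 2723 lower, against 2944 and 3064, and the block changed no call among the 8 members (MUC5AC adjusted p = 0.046). Among the other genes of the 6 lists, 33 were higher and 19 lower with the block, against 37 and 18 without it, and the call of OVGP1 was among those lost (adjusted p = 0.058). Same-numbered libraries did not deviate together (correlations of -0.0859, -0.0643 and -0.00313), so the numbers were not used as pairs. Depth limits MUC5B, MUC16, MUC3A and MUC12, and p-values for pairs cannot fall under 0.1.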

Other observations

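The protein-coding genes next to the mucin genes on the chromosome, looked at after the mucin values were known, give the local setting of the changes. Around MUC1, TRIM46 was at 3.88 ± 0.430 CPM in si-Ctrl and 4.64 ± 0.920 CPM in si-CHAF1A (log2 fold change 0.26, edgeR adjusted p = 0.324), and THBS3, thrombospondin 3, at 6.71 ± 1.84 and 9.55 ± 0.911 CPM (0.51, edgeR adjusted p = 0.0327, lost without si-Ctrl 3, si-CHAF1A 1 or si-CHAF1A 3 at 0.152, 0.101 and 0.116). The stretch of chromosome 11 that holds MUC6, MUC2, MUC5AC and MUC5B is flanked by AP2A2, an adaptor subunit of endocytosis, and TOLLIP, an adaptor of Toll-like receptor signalling. AP2A2 had a fitted log2 change of 0.21 (edgeR adjusted p = 0.224, and 0.37 with adjusted p = 0.0285 without si-CHAF1A 1) and TOLLIP at 0.02 (edgeR adjusted p = 0.882), beside 2.93 for MUC5AC. On chromosome 7, ACHE, acetylcholinesterase, which precedes MUC3A, rose from 3.21 ± 0.479 to 7.04 ± 0.365 CPM (log2 fold change 1.13, edgeR adjusted p = 7.3e-05), while TRIM56 on the far side of MUC12 and MUC17 was at -0.12 and did not pass (edgeR adjusted p = 0.222). The differences between these genes and the mucins were not tested.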
